A study of Rattus norvegicus with 36 samples.

Results

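A set of 5 related rat microRNAs (miRNAs), rno-miR-99a-5p, rno-miR-99b-5p, rno-miR-100-5p, rno-miR-125a-5p and rno-miR-125b-5p, are described here across brain regions and cocaine histories. They were chosen by name and are 5 of the 723 mature miRNAs counted. The 6 miRNAs made from the opposite (3p) arm of the same hairpins, rno-miR-99a-3p, rno-miR-99b-3p, rno-miR-100-3p, rno-miR-125a-3p, rno-miR-125b-1-3p and rno-miR-125b-2-3p, served as the comparison. All 11 were among the 457 miRNAs with enough counts to be tested. The prefix rno-, which stands for the rat, is left out below.

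Small RNA was sequenced from 12 male heterogeneous stock rats, an outbred stock. Each rat gave 3 libraries, from the infralimbic (IL) and prelimbic (PL) parts of the prefrontal cortex and from the nucleus accumbens (NAc), so that 36 libraries fell into 9 combinations of group and region with 4 rats in each. The naïve group had no cocaine. The withdrawal group was killed 16 h, by the labels, after the last session of escalated cocaine intake (the study's methods give a somewhat longer interval), and the abstinence group 4 weeks after it. Both of these groups had taken cocaine through an intravenous catheter, in short and then long daily sessions, and were given behavioural tests. Surgery, testing and cocaine cannot be told apart here if the naïve rats lacked the first of these, which the sources used here do not state. The methods match the groups for age at the start of self-administration, so that age at death and the length of abstinence cannot be told apart either. The regions were cut by hand from thick frozen sections, and each library is a mixture of all cells of the piece, in which fewer cells of a type and less miRNA per cell cannot be told apart.

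The miR-125 family is the mammalian counterpart of lin-4, the first miRNA described in the nematode Caenorhabditis elegans, and the miR-99/100 family is a relative of miR-10. In animals these families share primary transcripts with let-7, so that 1 long RNA is cut into a miR-99/100 hairpin, a let-7 hairpin and a miR-125 hairpin. In mammalian cells miR-125 is known for acting on Lin28, an inhibitor of let-7 processing, and miR-99/100 for acting on mTOR, a kinase of cell growth. miR-125b is abundant in neurons and in glia.

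The mature sequences below are shown because the seed, bases 2 to 8 from the 5′ end, sets which messages a miRNA can pair with, and they show which members share it. They come from RefSeq (GRCr8), 5′ to 3′, with the seed in capitals, and 4 of the 5 members and all 6 opposite arms had an entry. miR-99a-5p had none.
miR-99b-5p: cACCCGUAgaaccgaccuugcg
miR-100-5p: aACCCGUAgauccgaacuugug
miR-125a-5p: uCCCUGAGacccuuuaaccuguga
miR-125b-5p: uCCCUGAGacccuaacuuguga
miR-351-5p: uCCCUGAGgagcccuuugagccuga
miR-99a-3p: cAAGCUCGuuucuaugggucug
miR-99b-3p: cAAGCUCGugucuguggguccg
miR-100-3p: cAAGCUUGugucuauaggu
miR-125a-3p: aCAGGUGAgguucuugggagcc
miR-125b-1-3p: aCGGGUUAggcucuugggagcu
miR-125b-2-3p: aCAAGUCAggcucuugggaccu

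The seed ACCCGUA was carried by 2 of the 693 mature rat miRNAs in the reference, miR-99b-5p and miR-100-5p, and CCCUGAG by 3, miR-125a-5p, miR-125b-5p and miR-351-5p. miR-125a-5p (24 bases) and miR-125b-5p (22 bases) were identical over their first 13 bases and were 3 edits apart in all, and miR-99b-5p and miR-100-5p were 4 edits apart. The opposite arms had other seeds. miR-99a-3p and miR-99b-3p shared one, and those of miR-125a, miR-125b-1 and miR-125b-2 each had a seed of their own, so that miR-125b-1-3p and miR-125b-2-3p (4 edits apart) can be told apart in sequence although both of their hairpins give the same miR-125b-5p.

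In the RefSeq gene order the hairpins lay in 3 clusters. Mir99b, Mirlet7e and Mir125a lay within Spaca6. Mir99a, Mirlet7c1 and Mir125b2 lay within the uncharacterised gene LOC103693508. Mir100, Mirlet7a-2 and Mir125b1 lay within Mir100hgl and Lnc215. miR-125b-5p is therefore the product of 2 of the 3 clusters. Its reads, like those of let-7c-5p and let-7a-5p, cannot be assigned to a gene copy. Coordinates are not given, since this reference is of another build than the one the counts were made on.

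The 5 members were among the most abundant miRNAs in these tissues. By mean log2 CPM (the count relative to the library's total, scaled by the trimmed mean of M-values, TMM, on a log2 scale), miR-125a-5p ranked 2 of 457, miR-125b-5p ranked 9, miR-99a-5p 11, miR-99b-5p 16 and miR-100-5p 24. Together they made up 14.0% of all counts of a library in the median (range 11.1% to 16.8%). The median share of each in its library was 5.73% for miR-125a-5p, 2.95% for miR-125b-5p, 2.91% for miR-99a-5p, 1.37% for miR-99b-5p and 0.646% for miR-100-5p. Mature miRNAs are of near equal length, but counts of different miRNAs also carry how readily each one is ligated in library making, which was not measured.

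The opposite arms were far rarer, at 0.192% of counts for all 6 together in the median. They fell into 3 levels. miR-125b-1-3p, miR-125b-2-3p and miR-99b-3p ranked 85, 87 and 95, with totals over the 36 libraries of 281625, 233212 and 173624 counts. miR-125a-3p ranked 150 with 49957 counts. miR-99a-3p and miR-100-3p were close to absent, with 574 and 203 counts in all, and miR-100-3p had 0 counts in 5 libraries. The median ratio of the 5p to the 3p count was 31.0 for miR-99b, 44.9 and 49.9 for miR-125b-5p against the 3p arms of its hairpins 1 and 2, 482 for miR-125a, 19742 for miR-99a and 14299 for miR-100. The count of miR-125b-5p joins 2 hairpins, so that neither of its ratios is that of a single hairpin. The members of the same seed family thus differed widely in this ratio.

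**Figure D1:**
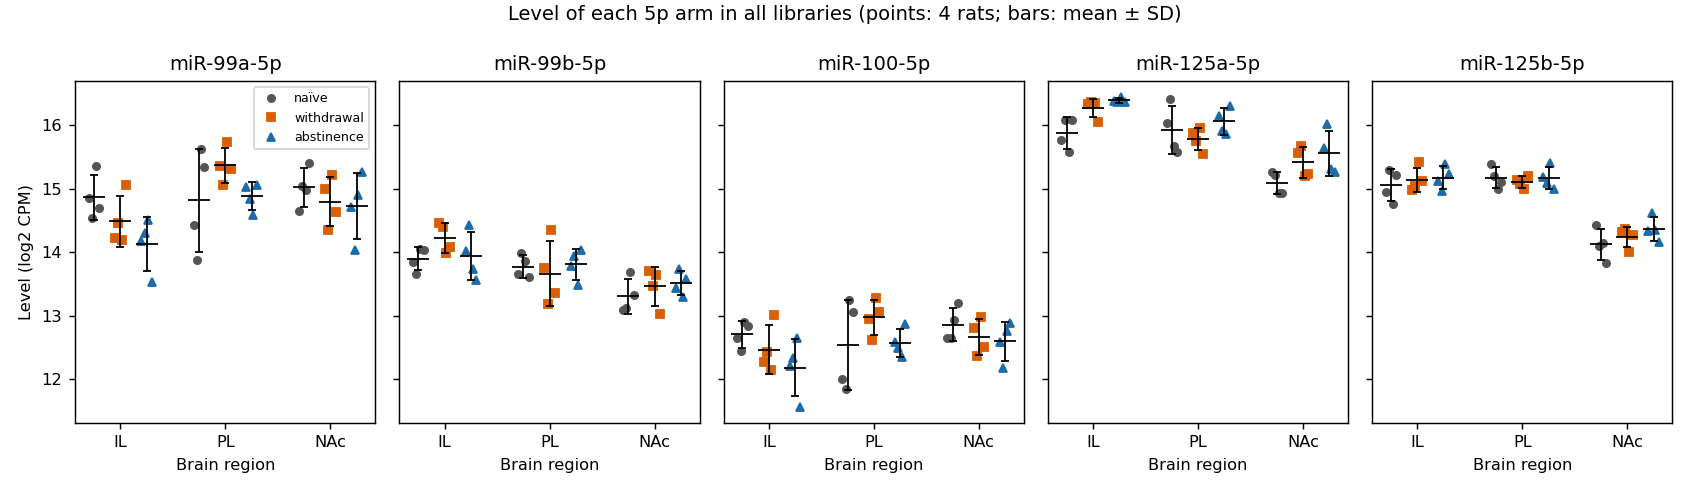
Level of each of the 5 members (vertical axis, log2 CPM) in the 3 regions (horizontal axis), by group. Each point is 1 rat, and the bars give the mean ± SD of 4 rats. miR-125b-5p is lower in all 12 NAc libraries (up to 14.62) than in any IL or PL library (14.75 or more), and miR-125a-5p of the abstinence group in IL lies between 16.36 and 16.45.

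The question of the first comparison was whether the members differ between the regions of the same rats. miR-125b-5p, miR-125a-5p and miR-99b-5p were lower in NAc than in both cortical regions, while miR-99a-5p and miR-100-5p were not called between NAc and either of them. With libraries scaled by their total counts alone, miR-99b-5p differed from PL by 0.037, miR-125a-5p by -0.22, which was no longer called (adjusted p = 0.12), and miR-125b-5p by -0.53. Against IL that scaling gave 0.61 for miR-99a-5p and 0.51 for miR-100-5p, and both were then called higher in NAc (adjusted p = 0.00025 and 0.00010). In NAc, miR-125b-5p was at 14.24 ± 0.21 log2 CPM (SD, n = 12), against 15.12 ± 0.20 in IL and 15.15 ± 0.14 in PL. miR-100-5p was at 12.71 ± 0.28 in NAc, 12.45 ± 0.40 in IL and 12.70 ± 0.46 in PL. Members of 1 cluster therefore had different regional patterns. The tests below are edgeR's quasi-likelihood test with the rat as a block and RNA integrity number (RIN) as a covariate, with p adjusted (Benjamini-Hochberg) over 457 miRNAs.

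miR-125b-5p ranged from 13.83 to 14.62 log2 CPM in the 12 NAc libraries (median 14.29), from 14.75 to 15.41 in IL (median 15.12) and from 14.996 to 15.40 in PL (median 15.12). No NAc library reached the lowest cortical one. It was lower in NAc than in PL in 12 of 12 rats (log2FC = -0.89, SE 0.09, adjusted p = 2.9e-09) and lower than in IL in 12 of 12 (log2FC = -0.88, SE 0.09, adjusted p = 1.4e-09). IL and PL differed by -0.01 (SE 0.09, adjusted p = 0.92), with IL higher in 4 rats and lower in 8.

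miR-125a-5p ranged from 14.93 to 16.02 log2 CPM in NAc (median 15.26), from 15.58 to 16.45 in IL (median 16.34) and from 15.55 to 16.41 in PL (median 15.89). The ranges overlapped: 4 of the 12 NAc libraries lay above the lowest PL library, the highest of them that of abstinence rat 2. Within rats, it was lower in NAc than in PL in 11 of 12 (log2FC = -0.59, SE 0.10, adjusted p = 1.9e-05, a call lost with total-count scaling) and lower than in IL in 12 of 12 (log2FC = -0.83, SE 0.10, adjusted p = 4.5e-08). The call against PL was also lost in the withdrawal rats alone (adjusted p = 0.073). Between IL and PL it differed by 0.25 (SE 0.10, adjusted p = 0.057), with IL higher in 9 of 12 rats. The mean difference of log2 CPM was -0.05 in the naïve, 0.49 in the withdrawal and 0.33 in the abstinence rats. IL was higher in 1 of 4 naïve rats and in 4 of 4 of each cocaine group. The adjusted p fell under 0.05 without naïve rat 1, 2 or 3 or abstinence rat 3 or 4 (lowest 0.0089). It was also under 0.05 with the DESeq2 test (0.030), limma-voom (0.043), DESeq2 size factors (0.045), total-count scaling (0.035) and without RIN under 8 (0.036).

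miR-99b-5p, which shares the primary transcript of miR-125a-5p, ranged from 13.03 to 13.74 log2 CPM in NAc (median 13.45), from 13.57 to 14.47 in IL (median 14.03) and from 13.19 to 14.35 in PL (median 13.76). It was lower in NAc than in IL in 11 of 12 rats (log2FC = -0.60, SE 0.11, adjusted p = 1.9e-05) and lower than in PL in 11 of 12 (log2FC = -0.33, SE 0.11, adjusted p = 0.012), although the difference from PL was 0.037 with total-count scaling. The call against PL was also lost in the withdrawal and in the abstinence rats alone (adjusted p = 0.44 and 0.20). Against PL, IL was higher by 0.28 (SE 0.11, adjusted p = 0.048; 9 of 12 rats). That call was lost on leaving out naïve rat 1 or 4, withdrawal rat 1, 2 or 4 or abstinence rat 1 or 2 (adjusted p up to 0.14). It was also lost with no filter (adjusted p = 0.095), with no RIN covariate (0.055), without RIN under 8 (0.065) and in each group alone.

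miR-99a-5p ranged from 14.03 to 15.40 log2 CPM in NAc (median 14.94), from 13.53 to 15.35 in IL (median 14.49) and from 13.88 to 15.74 in PL (median 15.06), so that rats of 1 region spanned more than the regions did. NAc differed from PL by -0.20 (SE 0.17, adjusted p = 0.31; 5 rats higher, 7 lower) and from IL by 0.33 (SE 0.17, adjusted p = 0.082; 7 higher, 5 lower). IL was lower than PL in 10 of 12 rats (log2FC = -0.53, SE 0.17, adjusted p = 0.018). The mean difference of log2 CPM of IL from PL was 0.04 in the naïve rats, -0.88 in the withdrawal rats and -0.75 in the abstinence rats. By edgeR's test the change from naïve was not called different between IL and PL at withdrawal (adjusted p = 0.46) or abstinence (0.61). The call of IL against PL was lost on leaving out naïve rat 3 or 4, withdrawal rat 1 or 3 or abstinence rat 1, 3 or 4 (adjusted p up to 0.13). It was also lost without RIN under 8 (adjusted p = 0.069) and in the naïve, withdrawal and abstinence rats alone (0.88, 0.052 and 0.245).

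miR-100-5p ranged from 12.17 to 13.21 log2 CPM in NAc (median 12.70), from 11.56 to 13.02 in IL (median 12.43) and from 11.85 to 13.28 in PL (median 12.74). It was not called in any of the 3 comparisons with TMM scaling: -0.02 for NAc against PL (SE 0.14, adjusted p = 0.92), 0.23 for NAc against IL (SE 0.14, adjusted p = 0.13) and -0.24 for IL against PL (SE 0.14, adjusted p = 0.16). With total-count scaling the first of these was 0.34 (adjusted p = 0.0072) and the next 0.51, and both were called.

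That scaling moved the median difference of all 457 miRNAs from 0.05 to 0.41 for NAc against PL and from 0.10 to 0.36 for NAc against IL. Relative to the median miRNA, a difference that cancels such a shift by construction, NAc against PL was -0.94 for miR-125b-5p, -0.64 for miR-125a-5p, -0.38 for miR-99b-5p, -0.26 for miR-99a-5p and -0.07 for miR-100-5p.

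Regional differences were common among all miRNAs, so the calls are to be read against that. Of the 5 members, 3 were called for NAc against PL, 3 for NAc against IL, all lower, and 2 for IL against PL, where 67.4%, 76.4% and 38.1% of all tested miRNAs were called. Lower calls in NAc made up 32.4% of all miRNAs against PL and 35.2% against IL, and higher calls 35% and 41.1%, while for IL against PL 18.2% were higher and 19.9% lower. The median log2FC of the 11 arms was -0.57 for NAc against PL and -0.83 for NAc against IL, beside 0.05 and 0.10 for all 457.

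**Figure D2:**
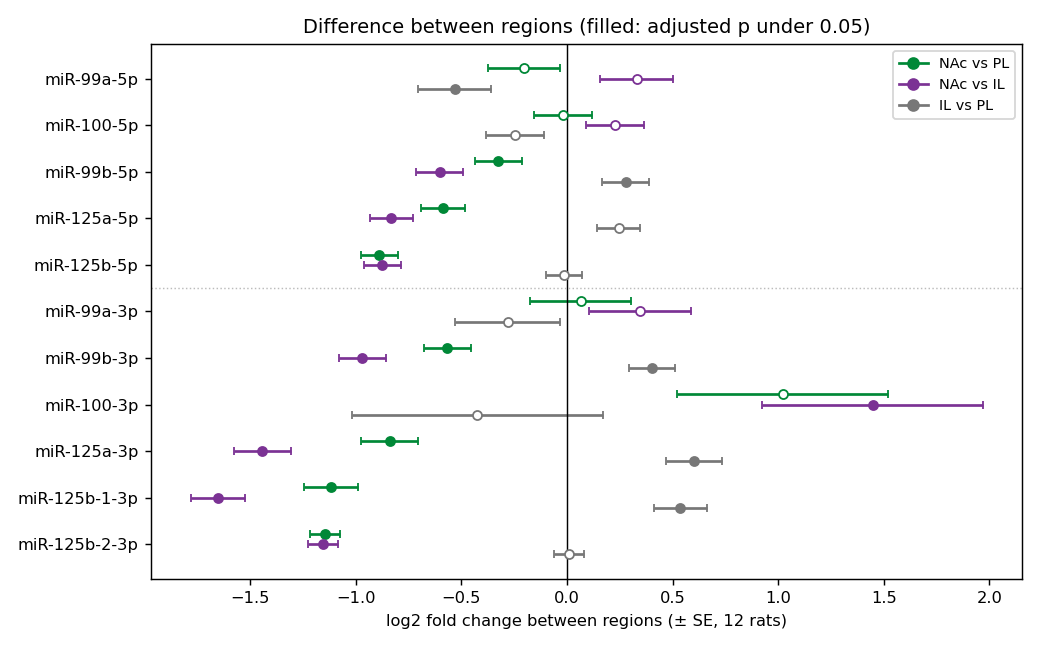
Difference between regions (horizontal axis, log2 fold change ± SE, 12 rats, TMM scaling) for the 5 members (above the dotted line) and the 6 opposite arms (below it). Filled points have an adjusted p under 0.05. The miR-125 arms lie between -0.59 and -1.65 in both comparisons with NAc, while miR-99a-5p and miR-100-5p lie within 0.33 of 0 there and, with total-count scaling, at 0.14 and 0.34 against PL and at 0.61 and 0.51 against IL.

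The opposite arms of the miR-125 hairpins and of miR-99b were lower in NAc too. Against PL, miR-125b-2-3p differed by -1.15 (SE 0.07, adjusted p = 5.4e-13), miR-125b-1-3p by -1.12 (SE 0.13, adjusted p = 3.3e-08) and miR-125a-3p by -0.84 (SE 0.14, adjusted p = 6.0e-06), each lower in 12 of 12 rats, and miR-99b-3p by -0.57 (SE 0.11, adjusted p = 6.3e-05; 11 of 12 rats). Against IL the values were -1.15, -1.65, -1.44 and -0.97 in the same order of arms, each lower in 12 of 12 rats and with adjusted p of 1.0e-08 or less. The call of miR-99b-3p against PL was lost with total-count scaling (-0.20, adjusted p = 0.15). It was also lost in the withdrawal and in the abstinence rats alone (adjusted p = 0.12 and 0.0505).

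The products of the miR-125b hairpins parted between IL and PL. miR-125b-1-3p was higher in IL than in PL in 11 of 12 rats (log2FC = 0.54, SE 0.12, adjusted p = 0.0046), and so were miR-125a-3p (0.60, adjusted p = 0.0043; 10 of 12 rats) and miR-99b-3p (0.40, adjusted p = 0.0081; 11 of 12 rats). By group, the mean differences of log2 CPM in naïve, withdrawal and abstinence rats were 0.21, 0.83 and 0.58 for miR-125b-1-3p, 0.15, 0.86 and 0.79 for miR-125a-3p and 0.10, 0.71 and 0.39 for miR-99b-3p. IL was higher in 3, 2 and 3 of the 4 naïve rats and in 4 of 4 of each cocaine group. None of the 3 was called in the naïve rats alone (adjusted p = 0.88 for each) or in the abstinence rats alone (adjusted p = 0.18, 0.18 and 0.23). Whether the change from naïve differed between IL and PL was tested with edgeR. The adjusted p was 0.44 or more for each arm and cocaine group. miR-125b-2-3p was at 9.59 ± 0.11 log2 CPM in IL and 9.58 ± 0.15 in PL (SD, n = 12) and differed by 0.01 (SE 0.07, adjusted p = 0.92; higher in 6 of 12 rats), like the shared miR-125b-5p. The count of miR-125b-1-3p per miR-125b-2-3p was 1.48 in IL, 1.02 in PL and 1.02 in NAc (medians of 12 rats). In IL its log2 was 0.21 ± 0.05 in the naïve, 0.72 ± 0.25 in the withdrawal and 0.78 ± 0.17 in the abstinence rats (SD, n = 4), and the lowest of the latter groups, 0.44, lay above the highest naïve rat, 0.26. This ratio was looked at after the values were known and was not tested. Other ratios parted between these groups in IL too. Of the 163 hairpin pairs with both arms measured, 7.98% had an arm ratio with an unadjusted exact permutation p under 0.05 for withdrawal against naïve. For abstinence against naïve the share was 12.3%, and both shares count either direction. How common such a separation is among ratios of 2 opposite arms was not counted.

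miR-99a-3p and miR-100-3p rested on 0 to 33 counts per library. With TMM scaling miR-99a-3p was not called between regions (0.06, 0.34 and -0.28 for NAc against PL, NAc against IL and IL against PL). Total-count scaling gave 0.61 for NAc against IL, which was called (adjusted p = 0.022). miR-100-3p had 3 to 15 counts in the NAc libraries, 0 to 10 in PL and 0 to 8 in IL. It was higher in NAc than in IL in 10 of 12 rats (log2FC = 1.45, SE 0.52, adjusted p = 0.012), opposite in sign to the miR-125 arms, but this call was lost without naïve rat 4, withdrawal rat 3 or abstinence rat 4 (adjusted p 0.050 to 0.053). Against PL it differed by 1.02 (SE 0.50, adjusted p = 0.066). That p was under 0.05 with the DESeq2 test (0.032), limma-voom (0.046), total-count scaling (0.014), without RIN under 8 (0.033) and without abstinence rat 2 (0.029).

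The relatives that lie on the same transcripts or carry the same seed were also followed. let-7c-5p, from the transcript of miR-99a and from a second gene, was at 13.81 ± 0.27 log2 CPM in NAc, 15.71 ± 0.25 in IL and 15.41 ± 0.25 in PL (SD, n = 12), and differed by -1.60 (SE 0.12) for NAc against PL and by -1.90 (SE 0.12) against IL. let-7a-5p differed by -0.82 and -1.01 and let-7e-5p by -0.80 and -1.14, all with adjusted p of 2.3e-06 or less. Of the 6 let-7 arms of these hairpins, let-7e-3p was lower as well (-0.26, adjusted p = 0.014, and -0.46, adjusted p = 4.6e-05), let-7c-1-3p was higher in NAc than in IL (0.97, adjusted p = 0.012, from 2 to 39 counts per library) and let-7a-2-3p was not called. miR-351-5p, which has the miR-125 seed and no place in these clusters, differed by -0.90 (adjusted p = 7.0e-08) and -1.30 (adjusted p = 4.0e-11), lower in 12 of 12 rats each time. miR-10a-5p and miR-10b-5p, the relatives of miR-99/100, went opposite ways for NAc against PL, at 1.13 (adjusted p = 0.024) and -1.58 (adjusted p = 0.00018).

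Ratios of 2 members of the same library need no scaling and show how far miRNAs of 1 primary transcript part between regions. The ratios were chosen after the values had been seen, so they are given as descriptions without a test. The count of miR-99a-5p per miR-125b-5p was 0.611 in IL, 1.02 in PL and 1.53 in NAc (medians of 12 rats). Within rats its log2 was higher in NAc than in IL by 1.23 ± 0.91 (SD, n = 12; 12 of 12 rats) and higher than in PL by 0.73 ± 0.73 (11 of 12 rats). The exception was abstinence rat 2.

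miR-100-5p per miR-125b-5p was 0.157 in IL, 0.199 in PL and 0.341 in NAc, higher in NAc in 12 of 12 rats against either region, by 1.13 ± 0.72 and 0.92 ± 0.55 on the log2 scale. miR-99b-5p per miR-125a-5p, the pair of the third cluster, was 0.247 in IL, 0.213 in PL and 0.241 in NAc. Its log2 differed by 0.25 ± 0.25 for NAc against PL (higher in 10 of 12 rats) and by 0.23 ± 0.47 against IL (higher in 8 of 12). Both mean differences were smaller than those of the ratios with miR-125b-5p. Since the reads of miR-125b-5p join 2 hairpins, neither ratio with it is that of a single transcript.

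**Figure D3:**
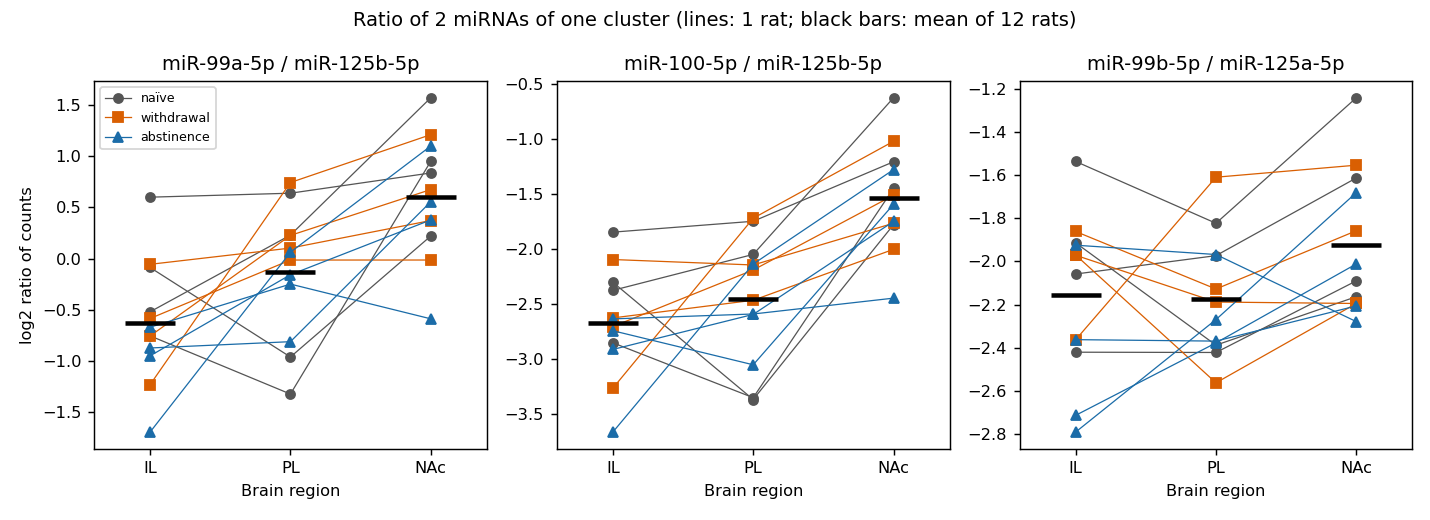
Ratio of 2 members of one cluster (vertical axis, log2 of the ratio of counts, on a scale of its own in each panel) in IL, PL and NAc of each rat. Thin lines join the libraries of 1 rat, and black bars are means of 12 rats. miR-100-5p per miR-125b-5p is highest in NAc in all 12 rats. miR-99b-5p per miR-125a-5p is higher in NAc than in PL in 10 of 12 rats and higher than in IL in 8 of 12.

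The summed shares of the seed families ran in opposite orders over the regions. The miR-125 members made up 10.9% of counts in IL, 9.09% in PL and 7.19% in NAc, and the miR-99/100 members 4.39%, 4.96% and 5.52% (medians of 12 libraries). The 5 together went from 15.5% in IL to 14.1% in PL and 12.5% in NAc. These shares were not tested, and a share of counts depends on all other miRNAs of the library.

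The ratio of the 5p to the 3p count, log2((5p + 0.5)/(3p + 0.5)), was compared within rats by exact two-sided sign-flip permutation tests, with p adjusted over the 163 hairpin pairs with both arms measured. For NAc against PL it was higher for miR-125a by 0.27 ± 0.14 (SD, n = 12; 12 of 12 rats, exact permutation test, adjusted p = 0.0019), for miR-99b by 0.26 ± 0.20 (11 of 12 rats, adjusted p = 0.0032) and for miR-125b-5p over miR-125b-2-3p by 0.24 ± 0.15 (11 of 12 rats, adjusted p = 0.0032). For NAc against IL the differences were 0.62 ± 0.32 for miR-125a, 0.39 ± 0.25 for miR-99b, 0.78 ± 0.44 for miR-125b-5p over miR-125b-1-3p and 0.28 ± 0.28 over miR-125b-2-3p (adjusted p from 0.0014 to 0.015). In these pairs the 3p arm was further below its cortical level in NAc than the 5p arm, where the 5p count of miR-125b is that of both hairpins. The pair of miR-125b-1-3p was not called against PL (0.21 ± 0.42, adjusted p = 0.15). In all, 4 of the 6 pairs were called for NAc against PL and 5 of 6 for NAc against IL, where 60.7% (30.7% higher, 30.1% lower) and 74.2% (38% higher, 36.2% lower) of all 163 pairs were called.

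The ratio of miR-100 was lower in NAc (-1.23 ± 1.53 against PL, adjusted p = 0.033, and -1.34 ± 1.62 against IL, adjusted p = 0.022), but its 3p arm had 15 counts at most, and the first of these calls was lost on leaving out any of the 4 naïve rats, withdrawal rat 3 or abstinence rat 1 or 4 (adjusted p up to 0.063). That of miR-99a was not called. For IL against PL none of the 6 pairs was called, as none of the 163 was (0%), and at an unadjusted p under 0.05 there were 2, miR-125a (-0.35) and miR-125b-5p over miR-125b-1-3p (-0.57), each with exact permutation p = 0.0093 and adjusted p = 0.094.

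Across libraries the members did not vary as 1 group. miR-99a-5p and miR-100-5p rose and fell together (Pearson's r = 0.942 over 36 libraries, and 0.946, 0.975 and 0.945 over the 12 libraries of IL, PL and NAc), and their ratio stayed between 3.63 and 5.51. miR-99a-5p and miR-100-5p are close relatives in sequence, and how the reads were shared between them in the counting was not tested. miR-125a-5p and miR-125b-5p went together over all libraries (r = 0.814), with 0.583 within IL, 0.071 within PL and 0.800 within NAc. miR-99a-5p and miR-125a-5p went in opposite directions (r = -0.561 over 36 libraries, -0.786 in IL, -0.602 in PL and -0.783 in NAc), and so did miR-99a-5p and miR-125b-5p within NAc (r = -0.880). These points share rats and regions and a common scaling, and the values are descriptions.

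**Figure D4:**
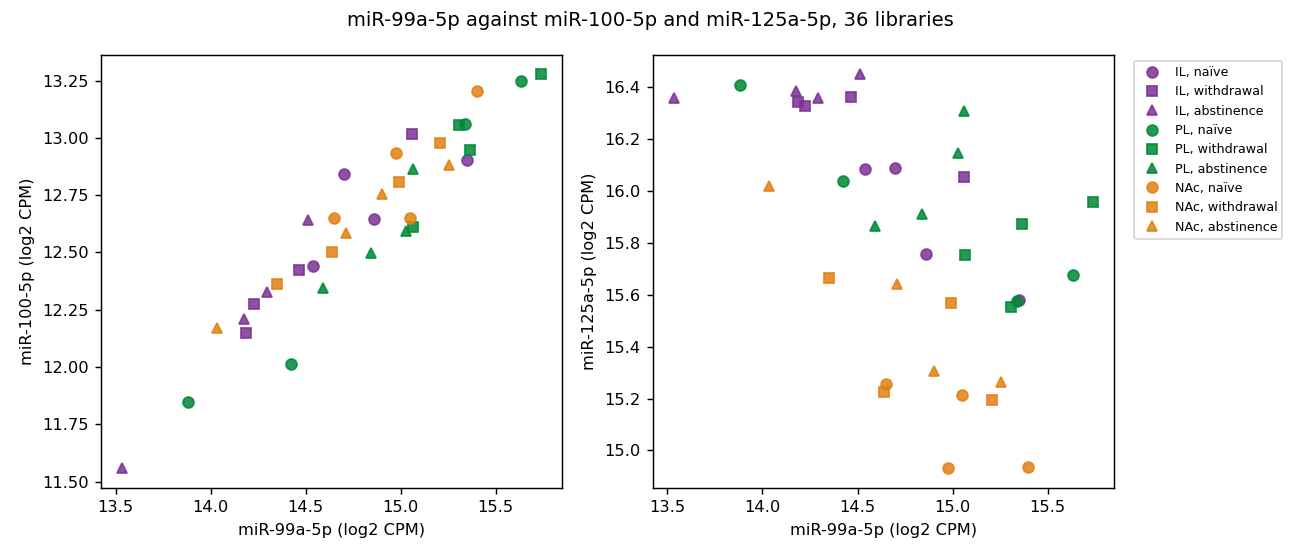
miR-100-5p (left) and miR-125a-5p (right), both in log2 CPM, against miR-99a-5p in the 36 libraries. Colours give the region and symbols the group. miR-100-5p rises with miR-99a-5p in every region (r = 0.942 over all), and miR-125a-5p falls with it in every region (r = -0.786 in IL, -0.602 in PL and -0.783 in NAc).

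Of the other miRNAs with a mean log2 CPM of at least 3 (290 compared), those with the pattern most like each member over the 36 libraries differed between the members, except that miR-99a-5p and miR-100-5p shared 2 of them. For miR-99a-5p they were miR-27b-5p (r = 0.912), miR-24-2-5p (0.904) and miR-30e-3p (0.883), and for miR-100-5p miR-27b-5p (0.921), miR-30e-3p (0.880) and let-7i-5p (0.872). For miR-125b-5p they were let-7c-5p (0.924), miR-135a-3p (0.908) and let-7b-5p (0.908). For miR-125a-5p they were miR-935 (0.944), miR-328a-3p (0.941) and miR-326-3p (0.922), and for miR-99b-5p miR-151-3p (0.960), miR-485-5p (0.938) and miR-504 (0.932). The 5p and 3p arms of 1 hairpin were correlated over 36 libraries at 0.901 for miR-99b and 0.900 for miR-125a. They were correlated at 0.434 for miR-99a and 0.402 for miR-100, whose 3p arms had few counts. miR-125b-5p, whose count joins 2 hairpins, was correlated at 0.920 and 0.793 with the 3p arms of hairpins 2 and 1. Within regions those of miR-99b and miR-125a were between 0.639 and 0.904. For miR-125b-5p the values over all libraries were not seen within the cortex, where they were -0.143 in IL and 0.085 in PL with miR-125b-2-3p and -0.087 and -0.094 with miR-125b-1-3p, while within NAc they were 0.713 and 0.425.

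The second question was whether the members differ with cocaine history within a region, tested in 1 fit of all 36 libraries. With the study's thresholds, a fold of at least 1.5 and an unadjusted p under 0.05, none of the 11 arms was called in any of the 9 comparisons. Of all miRNAs, 6.35%, 8.32% and 6.35% were called in IL (withdrawal against naïve, abstinence against naïve, abstinence against withdrawal), 4.81%, 2.41% and 3.5% in PL and 2.84%, 1.09% and 0.875% in NAc. By edgeR's quasi-likelihood test no adjusted p of the 11 was under 0.05, where 0.219% of all miRNAs passed for abstinence against withdrawal in IL and 0% in the other comparisons. An unadjusted p under 0.05 was reached in 4 cases, 2 of withdrawal and 1 of abstinence against naïve in IL and 1 of abstinence against naïve in NAc, and 3 of the 4 were of miR-125a-5p. Of all miRNAs, 8.32%, 11.6% and 8.1% did so in IL, 7%, 4.81% and 3.94% in PL and 4.38%, 2.84% and 1.31% in NAc, in the same order of comparisons. A left-out rat or another setting brought single arms past the thresholds, as given in the section on processing.

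miR-125a-5p was the member with the largest of these differences relative to its error. In IL it was at 15.76, 16.08, 15.58 and 16.09 log2 CPM in naïve rats 1 to 4, at 16.33, 16.36, 16.34 and 16.05 in the withdrawal rats and at 16.38, 16.36, 16.45 and 16.36 in the abstinence rats. Every abstinence rat was above every naïve rat, while withdrawal rat 4 lay among the naïve ones. Abstinence against naïve gave log2FC = 0.50 (SE 0.19, unadjusted p = 0.012, adjusted p = 0.29 in edgeR). The exact permutation test of the same 4 against 4 rats gave p = 0.0286, the smallest it can give, and 4.38% of all miRNAs were higher with no overlap in this comparison. Leaving out 1 rat gave 0.38 to 0.57, with an unadjusted p under 0.05 in 7 of 8 cases. Withdrawal against naïve gave 0.38 (SE 0.18, unadjusted p = 0.043, adjusted p = 0.49), which kept an unadjusted p under 0.05 in 4 of 8 such cases.

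In NAc, miR-125a-5p was at 15.26, 15.21, 14.93 and 14.94 log2 CPM in the naïve rats, 15.57, 15.67, 15.20 and 15.22 in the withdrawal rats and 15.64, 16.02, 15.30 and 15.26 in the abstinence rats. Again the abstinence rats were all above the naïve ones, by a narrow margin for rats 3 and 4. Abstinence against naïve gave log2FC = 0.50 (SE 0.18, unadjusted p = 0.010, adjusted p = 0.89 in edgeR), with exact permutation p = 0.0286, where 1.09% of all miRNAs were higher with no overlap. Leaving out 1 rat gave 0.32 to 0.65, with an unadjusted p under 0.05 in 7 of 8 cases, and without abstinence rat 3 (0.65) or 4 (0.60) it passed both thresholds. The comparison of withdrawal with naïve gave 0.34 (SE 0.18, adjusted p = 0.84). Both comparisons share the naïve rats.

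In PL the same miRNA showed no such order. It was at 16.04, 16.41, 15.68 and 15.58 log2 CPM in the naïve rats, 15.87, 15.75, 15.96 and 15.55 in the withdrawal rats and 16.15, 15.91, 15.86 and 16.31 in the abstinence rats, and the groups overlapped. Withdrawal against naïve gave -0.17 (SE 0.18, adjusted p = 0.78) and abstinence against naïve 0.11 (SE 0.18, adjusted p = 0.99). The test of the difference between regions gave 0.56 for the change at withdrawal in IL minus that in PL (SE 0.26, unadjusted p = 0.040, adjusted p = 0.44), beside 10.5% of all miRNAs with an unadjusted p under 0.05. For abstinence no difference between regions of miR-125a-5p had an unadjusted p under 0.05.

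**Figure D5:**
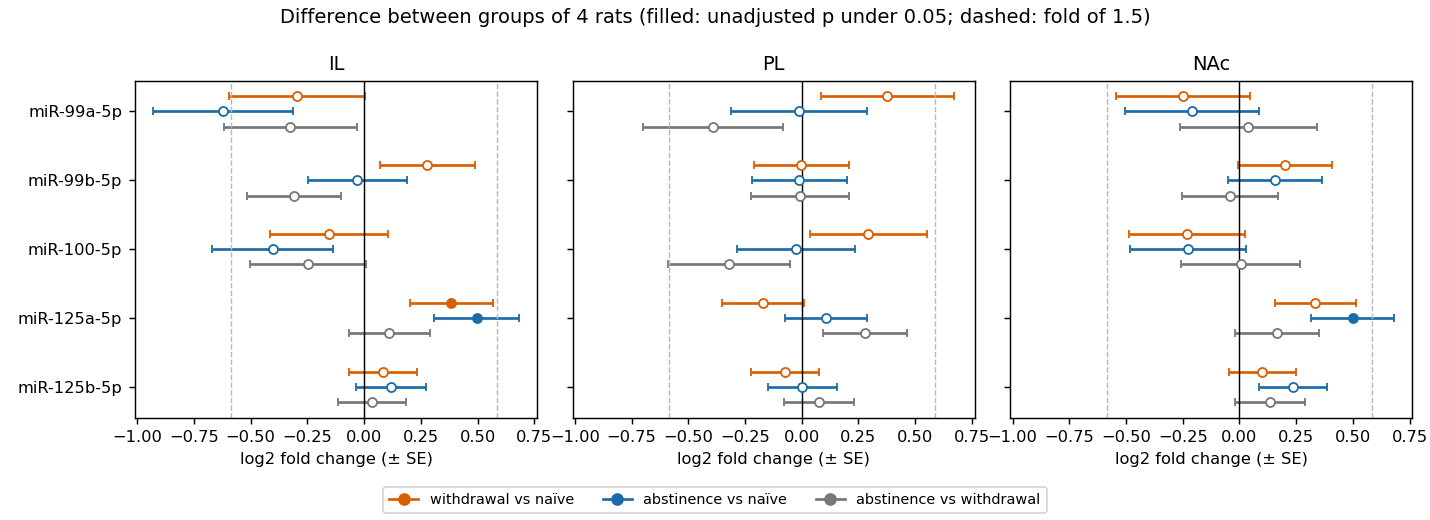
Differences between groups of 4 rats (horizontal axis, log2 fold change ± SE) for the 5 members in IL, PL and NAc. Filled points have an unadjusted p under 0.05, and dashed lines mark a fold of 1.5. The 3 filled points are all of miR-125a-5p, at 0.38 and 0.50 in IL and 0.50 in NAc, short of the dashed line at 0.58.

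miR-99a-5p moved the other way in IL. It was at 14.86, 14.54, 15.35 and 14.70 log2 CPM in the naïve rats, 14.23, 14.47, 14.19 and 15.06 in the withdrawal rats and 14.18, 14.29, 14.51 and 13.53 in the abstinence rats. All abstinence rats were below the lowest naïve rat, though the highest of them, at 14.51, came close to that rat, at 14.54. Abstinence against naïve gave log2FC = -0.62 (SE 0.31, unadjusted p = 0.052, adjusted p = 0.43 in edgeR), with exact permutation p = 0.0286, where 2.63% of all miRNAs were lower with no overlap. This is the member closest to the study's thresholds, with a fold over 1.5 and a p just over 0.05, and it passed both without naïve rat 2 (-0.76) or abstinence rat 2 (-0.72). In PL miR-99a-5p was at 15.36, 15.06, 15.74 and 15.31 in the withdrawal rats and 15.03, 14.84, 14.59 and 15.06 in the abstinence rats, which just failed to overlap (log2FC = -0.39, SE 0.31, adjusted p = 1.00), as did 4.6% of all miRNAs in that direction. The naïve PL rats ran from 13.88 to 15.63 and overlapped with both.

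The remaining members differed less. miR-100-5p followed miR-99a-5p, with -0.40 for abstinence against naïve in IL (SE 0.27, adjusted p = 0.51). miR-99b-5p ran from -0.31 to 0.28 and miR-125b-5p from -0.07 to 0.24 over the 9 comparisons. The lower miR-125b-5p of NAc against PL was seen in each group, with mean differences of log2 CPM of -1.05 in the naïve, -0.87 in the withdrawal and -0.80 in the abstinence rats, lower in 4 of 4 rats each time.

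Among the opposite arms, miR-125b-1-3p in IL was at 9.75, 9.80, 9.84 and 9.83 log2 CPM in the naïve rats and at 10.56, 10.48, 10.31 and 10.06 in the withdrawal rats, which did not overlap. The abstinence rats were at 10.54, 10.51, 9.82 and 10.38, of which rat 3 lay among the naïve ones. Withdrawal against naïve gave log2FC = 0.53 (unadjusted p = 0.035, adjusted p = 0.49), where 2.19% of all miRNAs were higher with no overlap. It passed both thresholds without naïve rat 2, 3 or 4 or withdrawal rat 3 or 4 (0.63 to 0.66). Of the differences between regions of a change, 5 values of the 11 arms for a cocaine group against naïve had an unadjusted p under 0.05: that of miR-125a-5p above, 3 of miR-125a-3p (0.74 and 0.72 for IL minus PL at withdrawal and abstinence, 0.65 for NAc minus PL at withdrawal) and 1 of miR-99a-3p (-1.37 for NAc minus PL at abstinence). None had an adjusted p under 0.05, nor had any miRNA of the 457 (0%). Of all miRNAs, 7.44%, 3.72% and 0.875% had an unadjusted p under 0.05 for NAc minus PL (withdrawal against naïve, abstinence against naïve, abstinence against withdrawal), 1.09%, 4.38% and 1.53% for NAc minus IL and 10.5%, 8.53% and 2.63% for IL minus PL. let-7e-5p, from the transcript of miR-125a, had differences of 0.55 and 0.70 for NAc minus PL and of 0.63 for IL minus PL at abstinence (unadjusted p from 0.012 to 0.045, lowest adjusted p 0.46).

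The 5p to 3p ratio was called for no pair between groups after adjustment. The log2 ratio of miR-125a in PL was 8.67 ± 0.13 in the naïve, 8.91 ± 0.08 in the withdrawal and 9.10 ± 0.17 in the abstinence rats (SD, n = 4), and neither of the latter groups overlapped with the naïve one (exact permutation p = 0.0286 for each, adjusted p = 0.83 and 0.94), and no other pair had an unadjusted p under 0.05. Of all 163 pairs, 0.613%, 1.84% and 1.84% had one in PL, 7.98%, 12.3% and 6.75% in IL and 0.613%, 2.45% and 1.84% in NAc, in the order of comparisons above.

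In the order of the 9 combinations of group and region, the only neighbours that did not overlap were the naïve IL and abstinence NAc groups of miR-125b-5p, which separate the 6 cortical groups (15.05 to 15.17 log2 CPM in the mean) from the 3 NAc groups (14.13 to 14.37). For the other members each group overlapped with the next. The highest means were those of abstinence IL for miR-125a-5p (16.39 ± 0.04, SD, n = 4), withdrawal IL for miR-99b-5p (14.23 ± 0.24) and withdrawal PL for miR-99a-5p (15.37 ± 0.28) and miR-100-5p (12.97 ± 0.28). The lowest were those of naïve NAc for miR-125a-5p, miR-125b-5p and miR-99b-5p, and abstinence IL for miR-99a-5p and miR-100-5p.

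Libraries held 6192155 to 18877136 counts. The withdrawal PL libraries (11372613 to 18877136) were all deeper than the naïve PL ones (7517269 to 9911807), so that a part of depth in that comparison cannot be told apart from the group. RIN ran from 7.4 to 9.3, with 2 libraries under 8, both of abstinence rat 2. The neuronal marker miR-124-3p had 32313 counts or more in every library. Summed levels of marker miRNAs of other cell types differed between regions, though not all members of a list went the same way: the summed CPM of 4 vessel miRNAs was 2837 in IL, 4619 in PL and 9058 in NAc, that of 2 of 4 listed oligodendrocyte miRNAs 683, 789 and 1637, and that of 5 choroid plexus and ependyma miRNAs 1347, 1335 and 2418 (medians of 12), while the 4 neuronal ones were at 251974, 317670 and 239009. The microglia and leukocyte sum covered 2 of 4 listed miRNAs and was at 657, 599 and 430. It left out miR-142-3p and miR-223-3p, which were not tested, with 10 and 7 counts at most and 0 in 7 and 12 libraries. The red cell sum covered 1 of 3 listed miRNAs, miR-451-5p, and was at 0.27, 0.52 and 1.41. Of the 4 neuronal miRNAs, miR-124-3p was lower in NAc (-0.55 against PL and -0.65 against IL). miR-128-3p was lower too (-0.72 and -0.30, the latter not called). miR-138-5p (0.46 and 0.54) and miR-137-3p (1.84 and 2.66) were called higher. Of the vessel miRNAs, miR-145-5p was lower in NAc (-1.001 against PL and -0.98 against IL) while both arms of miR-126a were higher (0.67 to 2.09). Of the 5 choroid plexus and ependyma miRNAs, miR-204-5p was called higher (0.54 and 0.52) and the other 4 were not called. The leukocyte sum followed miR-150-5p (-0.85 and -0.90), while miR-142-5p was higher in NAc (1.43 and 1.77). Their part in the regional differences of the miR-99/100 and miR-125 arms was not tested.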

How the data were processed

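Small RNA libraries were made with the NEBNext small RNA kit. The authors counted reads with CAP-miRseq, and the deposited values are raw counts per mature miRNA. The processing notes name mRatBN7.2 (rn7), while the methods name another build. Of 723 miRNAs, 95 had no count, and 457 passed filterByExpr (minimum count 10, total 15) with 99.9981% of all counts. The members and all lists were chosen with earlier results of these data known.

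The tests were edgeR 4.0.16 quasi-likelihood fits (R 4.3.3) with TMM scaling. Group comparisons and differences between regions of a change used 1 mean for each of 9 combinations and RIN. Region comparisons used the rat as a block and RIN. Groups were called at a fold of 1.5 with unadjusted p under 0.05, as in the study, and regions at adjusted p under 0.05 over the 457. The study's own test, limma-voom, was an alternative, since the deposited values are counts. The fits were tested on simulated data. Per-sample log2 CPM used TMM and a prior count of 0.5, and arm ratios used 0.5 added to each count. Exact permutation tests of 4 against 4 rats cannot go below 0.0286, and sign-flip tests of 12 rats not below 0.000488. The numpy version was 2.4.6, that of scipy 1.17.1 and that of pandas 2.3.3.

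Libraries of 1 rat were paired by the rat numbers of the study's sample list, and 1 naïve NAc library was tied to its rat by elimination. Deviations of same-rat libraries from their group means had a median correlation of 0.267 (NAc and PL), 0.147 (NAc and IL) and 0.265 (IL and PL). No 2 libraries of a group were alike within counting noise (54 pairs). Named miRNAs were all 11 arms, the let-7 arms of the same hairpins, the relatives miR-351 and miR-10, and the 3 tested miRNAs most correlated with each member. Alternatives were other scalings, no filter, DESeq2 1.42.0, limma-voom (limma 3.58.1), no RIN covariate, no libraries with RIN under 8, the block left out or added, each region or group alone, and each rat left out.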

Additional observations from a re-analysis of the deposited data

Results flagged for a closer look

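Among 99 sets of 4 rats (11 arms in 9 combinations of group and region), 6 held a library that stood apart from the other 3, where chance gives about 1 in 20 sets. miR-125a-5p in IL of withdrawal rat 4 was at 16.05 log2 CPM, below the other withdrawal rats (16.33 to 16.36), and it is this rat that overlaps with the naïve group. miR-99b-3p in PL of naïve rat 2 was at 9.49, above the others (8.74 to 8.85). miR-125b-2-3p in NAc of abstinence rat 2 was at 8.72, above the others (8.35 to 8.40), and the same library had the highest miR-125a-5p of NAc. miR-100-3p was at -4.46 in IL of withdrawal rat 3 and at -4.46 in IL of abstinence rat 4, both of which had 0 counts, and at -1.83 in NAc of abstinence rat 2, which had 3 counts.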

How the results depend on the processing

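Of the 11 arms, the number called between groups was 0 in all 9 comparisons and stayed there except as follows. In IL it became 1 for withdrawal against naïve without RIN under 8 (miR-125b-1-3p, 0.63), 1 for abstinence against withdrawal without RIN under 8 (miR-99b-5p, -0.61), and 1 for abstinence against naïve with upper quartile scaling, with no filter, with no RIN covariate, without RIN under 8 and with each region alone (miR-99a-5p each time, -0.72 to -0.67). In NAc it became 1 for abstinence against naïve with no filter (miR-125a-5p, 0.59). Leaving out 1 rat gave 0 to 1 in IL for withdrawal against naïve (miR-125b-1-3p without naïve rat 2, 3 or 4 or withdrawal rat 3 or 4) and for abstinence against naïve (miR-99a-5p without naïve rat 2 or abstinence rat 2, miR-125b-1-3p without abstinence rat 3), 0 to 2 in PL for withdrawal against naïve (miR-99a-5p and miR-99a-3p without naïve rat 3, miR-100-3p without naïve rat 4), 0 to 1 in PL for abstinence against naïve (miR-99a-3p without naïve rat 3) and 0 to 1 in NAc for abstinence against naïve (miR-125a-5p without abstinence rat 3 or 4, miR-99a-3p without naïve rat 4). Differences between regions of a change stayed at 0 under every alternative run.

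Between regions, 7 arms were called for NAc against PL, 8 for NAc against IL and 5 for IL against PL. Leaving out 1 rat gave 7 to 8, 7 to 8 and 3 to 6. With 4 rats of a group alone, NAc against PL fell to 4 in the withdrawal rats, and IL against PL to 0 in the naïve and 0 in the abstinence rats. With total-count scaling miR-99b-5p reversed to 0.037 and miR-100-5p to 0.34 for NAc against PL, and miR-125a-5p was at -0.22 (adjusted p = 0.12). There miR-99b-3p was at -0.20 (adjusted p = 0.15), and miR-100-3p was called (1.37, adjusted p = 0.014). The same scaling called miR-99a-5p (0.61), miR-100-5p (0.51) and miR-99a-3p (0.61, adjusted p = 0.022) for NAc against IL. For IL against PL it called miR-125a-5p (0.33, adjusted p = 0.035). With no replicate block (the rat left out), miR-99b-5p for IL against PL was 0.26 (adjusted p = 0.083) and miR-100-3p for NAc against PL 1.18 (adjusted p = 0.028), and no other of these region calls changed. With the rat as a random block, none of the 11 arms was called between groups (0 in each comparison), and miR-125a-5p for abstinence against naïve was 0.53 in IL.

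Depth limits miR-99a-3p and miR-100-3p, with at most 33 and 15 counts per library. Rats within a group are separate animals, with 4 rats per group. The exact permutation tests between groups rest on the spread between those rats. The group fits pooled the spread over all 36 libraries without a term for the rat. The 3 libraries of a rat were thus treated as separate in them. The region tests compared libraries within the 12 rats.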
